A study of Rattus norvegicus with 15 samples.

Results

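The genes described here are 9 genes of the podocyte, the epithelial cell that wraps the capillaries of the kidney's filter: Nphs1, Podxl, Synpo, Wt1, Ptpro, Plce1, Clic5, Magi2 and Npnt. They were taken by symbol from the expression table, each is 1 of its 34357 genes with an identifier, and all 9 were found. RNA was measured by RNA-seq in kidney cortex and mesenteric artery of Dahl salt-sensitive (SS) rats, inbred animals that become hypertensive on dietary salt. The deletion rats lack a noncoding interval of 30.4 kb on chromosome 2 (rn7, 60825801 to 60856216). It lies 9.27 kb from Npr3 (60865483 to 60933432, minus strand), measured to the end of the gene away from its start site. Npr3 encodes a receptor that clears natriuretic peptides. The control rats are labelled wild-type, with no further word on their origin. The groups were 3 wild-type and 4 deletion kidneys, and 4 wild-type and 4 deletion arteries. All titles call the rats male, while age, diet and the number of deletion lines are not given in the labels used here. No label says that the libraries came from separate animals, so p-values measure the spread between libraries, which may be partly technical. They were followed because podocytes and other glomerular cells are known to make Npr3, so that the level of Npr3 in a piece of cortex can be read beside the glomerular genes of the same library.

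Podocytes stand on the outer face of the glomerular capillary and send out foot processes that interlock. The gap between neighbouring foot processes is closed by the slit diaphragm, a protein zip that holds back plasma proteins, and the cells rest on a basement membrane shared with the capillary endothelium. Loss of slit diaphragm or foot process proteins lets albumin into the urine, a known feature of the Dahl SS rat. Natriuretic peptides act on the glomerulus, and the receptor made from Npr3 takes them up and removes them.

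The members fall into 4 roles. At the slit diaphragm, Nphs1 encodes nephrin, its main structural protein (rn7 chromosome 1, 85720812 to 85749079, plus strand), and Magi2 encodes a scaffold that binds nephrin (chromosome 4, 14386389 to 15870036, minus strand). On the cell surface and in the foot process, Podxl encodes podocalyxin, the charged sialomucin of the outer coat (chromosome 4, 60135124 to 60181829, minus strand), and Ptpro a receptor tyrosine phosphatase (chromosome 4, 170164071 to 170374790, plus strand). Synpo encodes synaptopodin, which binds actin (chromosome 18, 54048299 to 54106388, minus strand), and Clic5 a partner of the ezrin proteins that tie podocalyxin to actin (chromosome 9, 16710980 to 16813502, minus strand). Signalling and transcription are represented by Plce1, phospholipase C epsilon (chromosome 1, 236243445 to 236552571, plus strand), and Wt1, a zinc finger factor needed for podocyte identity (chromosome 3, 91566540 to 91613653, plus strand). Npnt encodes nephronectin, a basement membrane ligand of integrins (chromosome 2, 221391151 to 221459527, minus strand).

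Promoter sequences of 4 of the genes are shown because the kidney results below turn on genes that moved together from library to library, so that a reader can compare the sequence next to their start sites. They are the 250 bases before the start site on the gene's own strand, from RefSeq on GRCr8, a later build than the rn7 of the expression table. The windows are chr1:94848011-94848260 (plus strand) for Nphs1, chr4:61149132-61149381 (minus strand) for Podxl, chr4:16762136-16762385 (minus strand) for Magi2 and chr2:62658766-62659015 (minus strand) for Npr3. Capitals mark matches to 1 of 4 motifs searched on both strands.
Nphs1: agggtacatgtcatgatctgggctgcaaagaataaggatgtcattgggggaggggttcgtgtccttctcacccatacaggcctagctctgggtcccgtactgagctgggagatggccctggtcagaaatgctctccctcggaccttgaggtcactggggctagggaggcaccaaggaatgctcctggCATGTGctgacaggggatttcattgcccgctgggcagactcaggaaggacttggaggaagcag
Podxl: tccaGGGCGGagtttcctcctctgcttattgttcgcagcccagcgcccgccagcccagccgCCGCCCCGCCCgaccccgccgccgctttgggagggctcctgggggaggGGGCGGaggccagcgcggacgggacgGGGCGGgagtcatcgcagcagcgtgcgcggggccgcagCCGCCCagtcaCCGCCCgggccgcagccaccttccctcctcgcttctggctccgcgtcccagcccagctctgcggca
Magi2: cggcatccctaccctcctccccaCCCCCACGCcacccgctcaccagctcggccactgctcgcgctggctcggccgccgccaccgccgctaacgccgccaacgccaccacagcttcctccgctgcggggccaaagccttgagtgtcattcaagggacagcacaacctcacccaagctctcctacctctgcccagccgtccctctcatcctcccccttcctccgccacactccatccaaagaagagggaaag
Npr3: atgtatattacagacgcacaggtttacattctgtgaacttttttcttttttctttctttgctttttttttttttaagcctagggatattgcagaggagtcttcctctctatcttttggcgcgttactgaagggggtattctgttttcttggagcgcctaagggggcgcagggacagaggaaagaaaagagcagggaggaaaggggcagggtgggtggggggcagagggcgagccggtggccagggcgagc
RefSeq promoters were found for 8 of the 9 members, Plce1 being the exception. The WT1 and EGR motif GCGTGGGNG was found in Magi2 alone of these 8, and in 1.455% of 33469 rat promoters of the same length. The GC box GGGCGG was found in Podxl, Synpo, Clic5 and Npnt, and in 30.5% of all promoters, with 7 matches in Podxl. An E-box, CANNTG, was found in Nphs1 and Wt1, and in 65.5% of all promoters. TAATTA, a LIM homeodomain motif, was in none of the 8 and in 4.86% of all. The Npr3 window held none of the 4 motifs. In the windows shown no 2 different motifs overlap, and a match describes letters only.

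The files give no read counts, so the depth of each library is unknown. The FPKM values of a library (fragments scaled to gene length and library size) summed to between 376270 and 459847 in kidney and between 285679 and 433477 in artery. The library labelled kidney wild-type 3 went against its label in sex-linked genes: Xist stood at 81.1 FPKM in it, and the Y-linked Eif2s3y at 0, against 35.9 to 39.6 in the other kidneys. The main results over the kidneys are therefore also given without it. Rn7sl1, a small cytoplasmic RNA, took 8.23% to 22.0% of the summed FPKM in the kidneys, the highest share being in deletion 2 and 9.57% in wild-type 1.

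In kidney cortex, all 9 genes were measured, and their levels varied far more between libraries than between genotypes. Podxl had 83.2, 46.4 and 46.8 FPKM in wild-type kidneys 1 to 3, and 46.3, 100.8, 45.5 and 43.4 FPKM in deletion kidneys 1 to 4. Nphs1 had 11.3, 5.94 and 8.49 FPKM in the wild-type kidneys and 6.80, 14.1, 6.62 and 6.41 FPKM in the deletion kidneys. Ptpro had 19.4, 12.2 and 12.2 FPKM, and 11.4, 21.7, 11.4 and 10.8 FPKM, in the same order. In these genes 1 library of each genotype, wild-type 1 and deletion 2, stood above the other 5. The same held for Synpo, at 14.4, 7.89 and 11.6 FPKM in wild-type and 9.68, 22.0, 9.62 and 8.47 FPKM in deletion kidneys. Clic5 had 23.6, 16.3 and 14.1 FPKM in wild-type and 16.7, 35.0, 15.7 and 16.0 FPKM in deletion kidneys. Magi2, the member of lowest level, had 1.92, 0.691 and 1.14 FPKM, and 1.28, 2.43, 0.966 and 0.969 FPKM. In Wt1, too, these libraries were the 2 highest, by a smaller margin: it had 4.75, 3.72 and 2.86 FPKM in wild-type and 2.999, 5.89, 2.75 and 3.31 FPKM in deletion kidneys. Npnt, which other kidney cells also make, had the smallest spread, at 56.5, 44.7 and 51.4 FPKM in wild-type and 45.3, 63.7, 43.1 and 46.9 FPKM in deletion kidneys. Plce1 had 3.58, 1.97 and 3.72 FPKM in wild-type and 2.61, 4.85, 1.76 and 2.21 FPKM in deletion kidneys, and was the 1 member in which wild-type 3 rather than wild-type 1 came second. Deletion 2 was thus the highest kidney for 9 of 9 members, and wild-type 1 the second highest for 8 of 9.

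**Figure D1:**
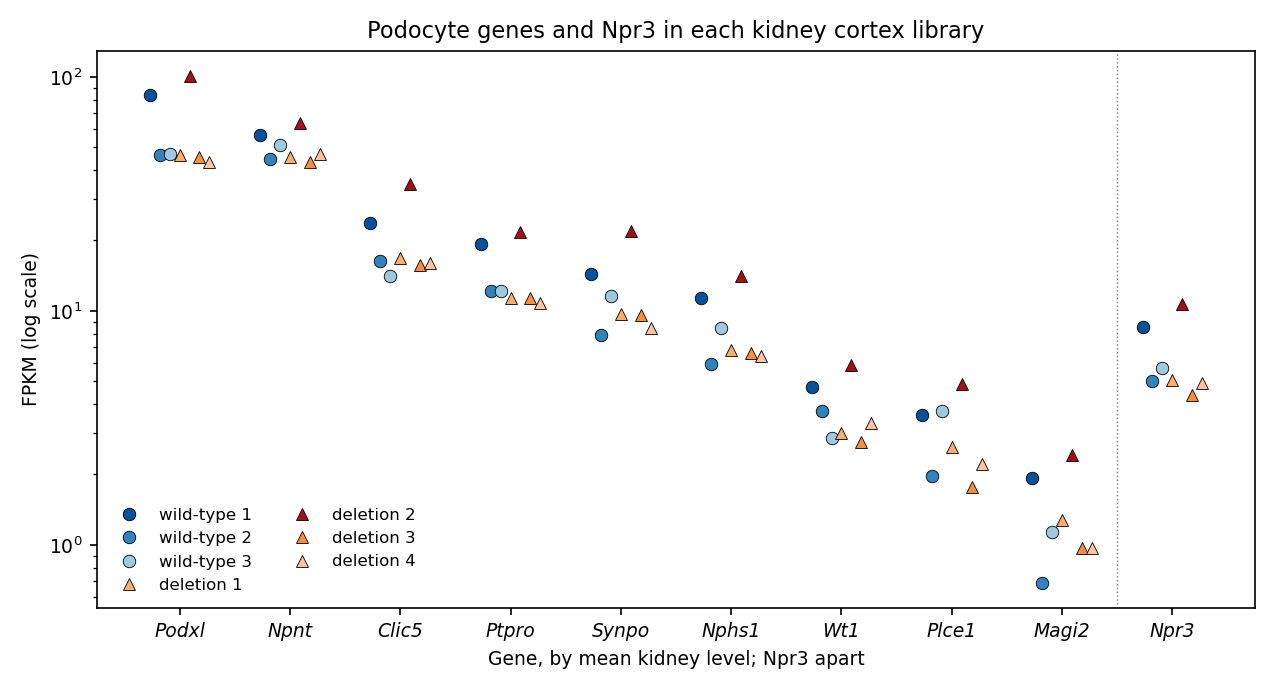
FPKM (log scale) of the 9 podocyte genes, in order of mean kidney level, and of Npr3 at the right, with 1 point for each of the 7 kidney libraries (circles wild-type, triangles deletion). Deletion 2 is the highest point of every gene shown, and wild-type 1 is the second highest in all but Plce1.

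The order of the mean levels, on the FPKM scale, which is per length, ran from Podxl (58.9 ± 23.2, SD, n = 7) and Npnt (50.2 ± 7.50) through Clic5 (19.6 ± 7.42), Ptpro (14.1 ± 4.45), Synpo (11.9 ± 4.94) and Nphs1 (8.53 ± 3.08) to Wt1 (3.75 ± 1.16), Plce1 (2.96 ± 1.13) and Magi2 (1.34 ± 0.616). Podxl and Npnt changed places between libraries, Podxl being higher in 5 of 7. Ptpro was above Synpo in 6 of 7 libraries and Wt1 above Plce1 in 6 of 7, so these neighbours overlap. Every other step between neighbouring members held in 7 of 7 libraries. The coefficient of variation over the 7 kidneys ran from 14.9% (Npnt) to 45.9% (Magi2), with a median of 37.8%. For all 15444 genes tested in kidney the median was 19.4%, and 8 of the 9 members lay above it. Without the library labelled wild-type 3, the members ran from 16.4% to 48.5%, with a median of 39.5%.

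The members also moved together. Across the 7 kidneys all 36 correlations between members, on log2(FPKM + 0.5), were positive, from 0.666 to 0.995 with a median of 0.918. Without wild-type 3 all 36 were again positive, from 0.784 to 0.996 with a median of 0.954. The points share libraries, and the 2 high ones weigh on every value, so this is a description. In bulk cortex, fewer podocytes and less RNA per podocyte cannot be told apart.

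The deletion was compared with wild-type in kidney to ask whether loss of the interval beside Npr3 affects these genes. None of the 9 passed the test (limma, adjusted p = 0.999 for each), and for no member were the groups free of overlap. The log2 differences, deletion minus wild-type on the log2(FPKM + 0.5) scale, ran from -0.14 (SE 0.31) for Plce1 to 0.15 (SE 0.28) for Clic5. Nphs1 was at -0.05 (SE 0.29), Podxl at -0.04 (SE 0.32), Synpo at 0.07 (SE 0.31), Wt1 at -0.04 (SE 0.26), Ptpro at -0.10 (SE 0.26), Magi2 at 0.13 (SE 0.32) and Npnt at -0.04 (SE 0.17). Of the 9, 3 were above 0 and 6 below, with a median of -0.04, against a median of 0.04 over all genes tested. Of all genes tested, 0% were called, 1.41% had an unadjusted p under 0.05 and 2.55% had groups that did not overlap. The intervals were wide: for Nphs1 the ratio was 0.967 (95% confidence interval 0.615 to 1.52), and for Npnt, the tightest, 0.970 (0.746 to 1.26). Leaving out 1 library changed the sign of the difference for each of the 9 members. Without both wild-type 1 and deletion 2, Podxl was at -0.05, Nphs1 at -0.10 and Plce1 at -0.27, again with no member called. Without wild-type 3 no member was called either, and the differences ran from -0.21 for Ptpro and Wt1 to 0.11 for Magi2.

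Npr3 followed the members from kidney to kidney. It had 8.52, 5.01 and 5.69 FPKM in wild-type kidneys 1 to 3 and 5.05, 10.7, 4.39 and 4.91 FPKM in deletion kidneys 1 to 4. Its highest libraries were again deletion 2 and wild-type 1, and its groups overlapped. Pearson's r between Npr3 and a member over the 7 kidneys, on log2(FPKM + 0.5), was 0.978 for Podxl (exact permutation p = 0.00516), 0.977 for Ptpro (exact p = 0.00377), 0.977 for Npnt (exact p = 0.000992) and 0.970 for Nphs1 (exact p = 0.00298). It was 0.943 for Synpo (exact p = 0.00437), 0.930 for Clic5 (exact p = 0.0192), 0.922 for Wt1 (exact p = 0.0111), 0.921 for Magi2 (exact p = 0.00813) and 0.884 for Plce1 (exact p = 0.00238). Spearman's rho ran from 0.643 (Clic5, exact p = 0.139) and 0.679 (Wt1, exact p = 0.11) to 0.929 (Podxl and Plce1, exact p = 0.00675). The remaining members had a rho of 0.857, or 0.893 for Npnt.

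All 9 members had a positive r with an unadjusted exact p under 0.05, as had 15.2% of all 15443 genes compared with Npr3. By rho it was 7 of the 9. With adjustment over all genes no member passed (exact permutation test with Benjamini-Hochberg adjustment, adjusted p = 0.141 to 0.188 for r), nor did any gene, 0% being called. The members' r values stood at the 95.6 to 99.9 percentile of all genes, whose median r was 0.297. Members were highest in the same 2 libraries as Npr3 in 8 of 9 cases, against 22.5% of all genes.

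The relation rests largely on those 2 libraries. Without deletion 2 and wild-type 1, the kidneys farthest from the median of Npr3, r over the other 5 was 0.918 for Plce1, 0.905 for Npnt and 0.675 for Nphs1. It was 0.524 for Ptpro, 0.486 for Synpo, 0.439 for Podxl, 0.287 for Magi2, 0.08 for Wt1 and -0.56 for Clic5. In this smaller set 1 of 9 members, Plce1, kept an unadjusted exact p under 0.05. Leaving out wild-type 1 alone, or deletion 2 alone, left 6 of 9, with Wt1, Clic5 and Magi2 no longer under 0.05. Without the library labelled wild-type 3, r ran from 0.921 to 0.992, and with values centred within genotype it ran from 0.884 to 0.980.

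**Figure D2:**
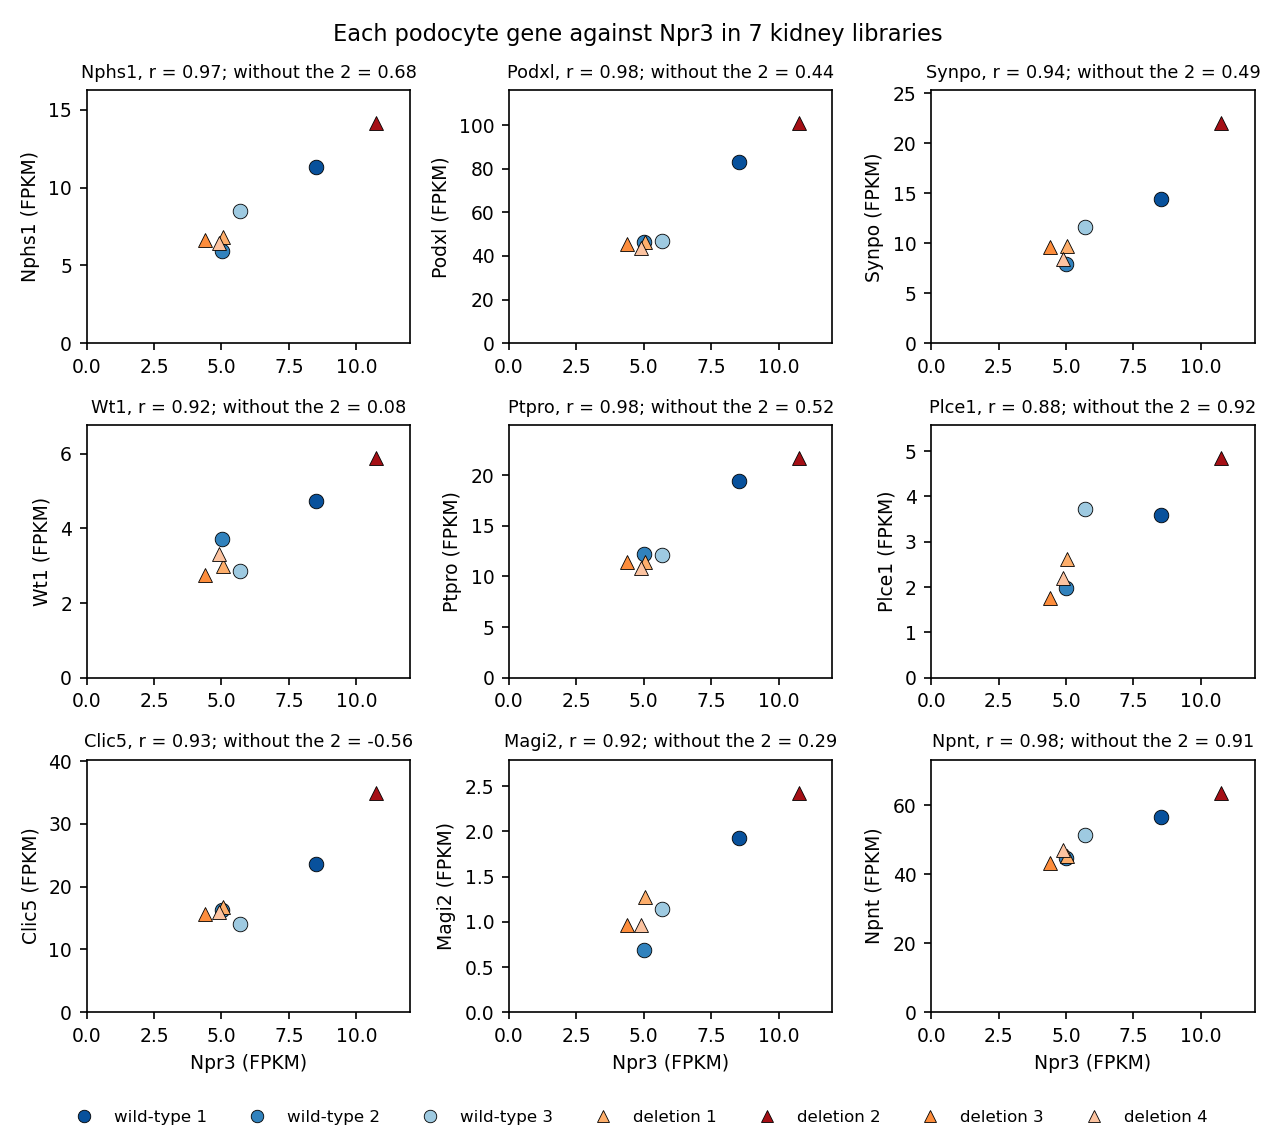
FPKM of each podocyte gene (vertical axes) against FPKM of Npr3 (horizontal axes) in the 7 kidney libraries, circles wild-type and triangles deletion. Each title gives r on log2(FPKM + 0.5) over all 7 libraries and r without the 2 libraries farthest from the median of Npr3, wild-type 1 and deletion 2: these 2 stand at the right of each panel, and the other 5 lie in a cloud in which Plce1 and Npnt keep an r of 0.918 and 0.905 and Clic5 falls to -0.56.

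The ratio of Npr3 to Podxl, to Ptpro and to the mean of the members varied little between kidneys, and that to Npnt varied more. The ratio of Npr3 to Podxl in FPKM was 0.102, 0.108 and 0.122 in wild-type kidneys 1 to 3 and 0.109, 0.107, 0.0966 and 0.113 in deletion kidneys 1 to 4. Deletion 2 and wild-type 1, in which both genes were highest, lay inside this range, at 0.107 and 0.102. Over the 7 kidneys the ratio was 0.108 ± 0.00793 (SD, n = 7), a coefficient of variation of 7.33%, where Npr3 alone had 37.5% and Podxl alone 39.4%. Without wild-type 3 the ratio varied by 5.39%. To the geometric mean of the 9 members the ratio varied by 4.95%, to Ptpro by 8.15% and to Npnt by 21.1%. The last is above the 14.9% of Npnt alone, and ratios to the other single members were not taken. In the arteries the ratio of Npr3 to Podxl ran from 0.414 to 1.33, with a coefficient of variation of 41.5%.

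The kidney difference of Npr3 was then taken at an equal level of the 9 members, with their mean log2 value in each library as a covariate. This mean is not a measure of podocytes alone. Podxl, 1 of the 9, averaged 43.9 FPKM in artery against 58.9 FPKM in kidney. Rhcg, a gene of the distal nephron and collecting duct, had an r of 0.993 with the mean over the kidneys. Without the covariate Npr3 was at -0.08 (SE 0.29), a ratio of deletion to wild-type of 0.944 (95% confidence interval 0.598 to 1.49). With it the value was -0.07 (SE 0.10), a ratio of 0.949 (95% confidence interval 0.804 to 1.12). Its adjusted p in limma was 0.909 (0.491 unadjusted). The estimate was nearly the same and its interval narrower, and no difference between genotypes passed the test. With the mean of 24 other podocyte genes as covariate the ratio was 0.981 (95% confidence interval 0.793 to 1.21). Leaving out each kidney in turn moved the log2 difference between -0.09 and -0.05, and without both deletion 2 and wild-type 1 it was -0.09. The covariate comes from the same libraries as Npr3, and a part of the deletion's effect that it shares with the podocyte genes would be removed by it.

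**Figure D3:**
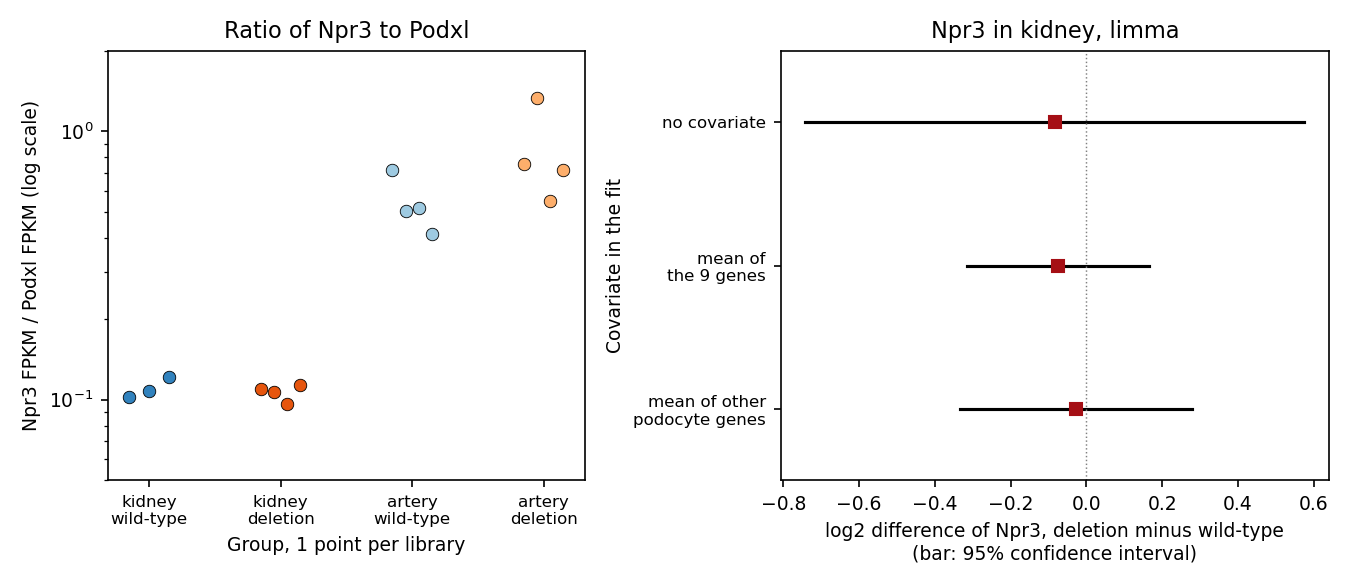
Left, the ratio of Npr3 to Podxl in FPKM (log scale), 1 point per library, in the 4 groups; the 7 kidneys lie between 0.0966 and 0.122 and the 8 arteries between 0.414 and 1.33. Right, the log2 difference of Npr3 between deletion and wild-type kidneys (squares, with 95% confidence intervals) from limma without a covariate, with the mean of the 9 podocyte genes and with the mean of 24 other podocyte genes; all 3 intervals include 0.

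A longer list of 25 other podocyte genes, of which 24 were high enough to be tested in kidney, gave the same picture of the deletion. None of the 24 was called, 11 were higher and 13 lower in deletion kidneys, and the median log2 difference was -0.04. Those with the smallest p were Cldn5, a tight junction claudin (-0.28, SE 0.17), Cd2ap, an adaptor of the slit diaphragm (0.20, SE 0.13), Actn4, an actin crosslinker of the foot process (0.19, SE 0.16), and Ddn, dendrin, which binds nephrin (-0.29, SE 0.26). Leaving out 1 kidney kept the sign of these 4, and Ddn moved most, to -0.55 without deletion 2.

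Of the 24, 11 were highest in deletion 2 and wild-type 1, against 22.5% of all genes, and their median r with Npr3 was 0.746. The values spread from -0.01 for Actn4, which most cells make, and 0.12 for Arhgap24 to 0.959 for Crb2 and 0.994 for Sema3g, a secreted semaphorin of podocytes. Sema3g had 55.9, 39.4 and 42.0 FPKM in wild-type and 36.9, 70.6, 35.7 and 37.4 FPKM in deletion kidneys. It also had 10.6 to 18.5 FPKM in the arteries, so its RNA is not made by podocytes alone.

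Markers of other cells in the cortex were read in the same libraries. All 9 endothelial genes were highest in deletion 2 and wild-type 1, with a median r with Npr3 of 0.868. Their summed level was 166, 138 and 119 FPKM in wild-type and 122, 195, 107 and 124 FPKM in deletion kidneys. Genes of the mesangium and the juxtaglomerular cells, which lie within and beside the glomerulus, had a median r of 0.698, with 5 of 8 highest in the same 2 libraries. For the glomerular basement membrane and its receptors the median was 0.791, with 7 of 11 highest there. Parietal epithelial genes, from the capsule around the glomerulus, had a median of 0.486, with 1 of 5 highest there.

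The tubule lists differed from each other. Proximal tubule genes ran the other way: r was below 0 for 8 of 8, with a median of -0.697, and their summed level of 2540, 2656 and 2587 FPKM in wild-type and 2489, 1892, 2896 and 2664 FPKM in deletion kidneys was lowest in deletion 2. The 5 late proximal tubule genes, too, had an r below 0, with a median of -0.297. Genes of the loop of Henle and distal tubule had a median r of 0.8, with 3 of 5 highest in deletion 2 and wild-type 1. The collecting duct genes had a median of 0.737, with 3 of 8 highest there, and the smooth muscle genes 0.791, with 2 of 5. Without wild-type 3 the median r was 0.922 for the endothelial genes, 0.835 for the other podocyte genes, 0.854 for the basement membrane list, 0.740 for the mesangial and juxtaglomerular list, 0.630 for the parietal list and -0.855 for the proximal tubule genes. The late proximal tubule genes then had a median of -0.520, the loop and distal genes 0.800, the collecting duct genes 0.805 and the smooth muscle genes 0.789. As for the members, these relations rest largely on deletion 2 and wild-type 1. Without both, r with Npr3 ran from -0.985 to 0.679 in the proximal tubule genes. It then ran from -0.537 to 0.970 in the endothelial genes and from -0.601 to 0.961 in the other podocyte genes. By summed level, deletion 2 and wild-type 1 were the kidneys with the highest podocyte and endothelial RNA, but not in these lists alone. They were also highest for the collecting duct genes, at 693 and 530 FPKM, with wild-type 2 next at 514 FPKM. The same held for the mesangial and juxtaglomerular genes, at 79.6 and 62.3 FPKM, with wild-type 2 next at 61.0 FPKM. Deletion 2 had the lowest summed proximal tubule RNA. The part of the cell makeup of each piece in these relations was not tested.

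**Figure D4:**
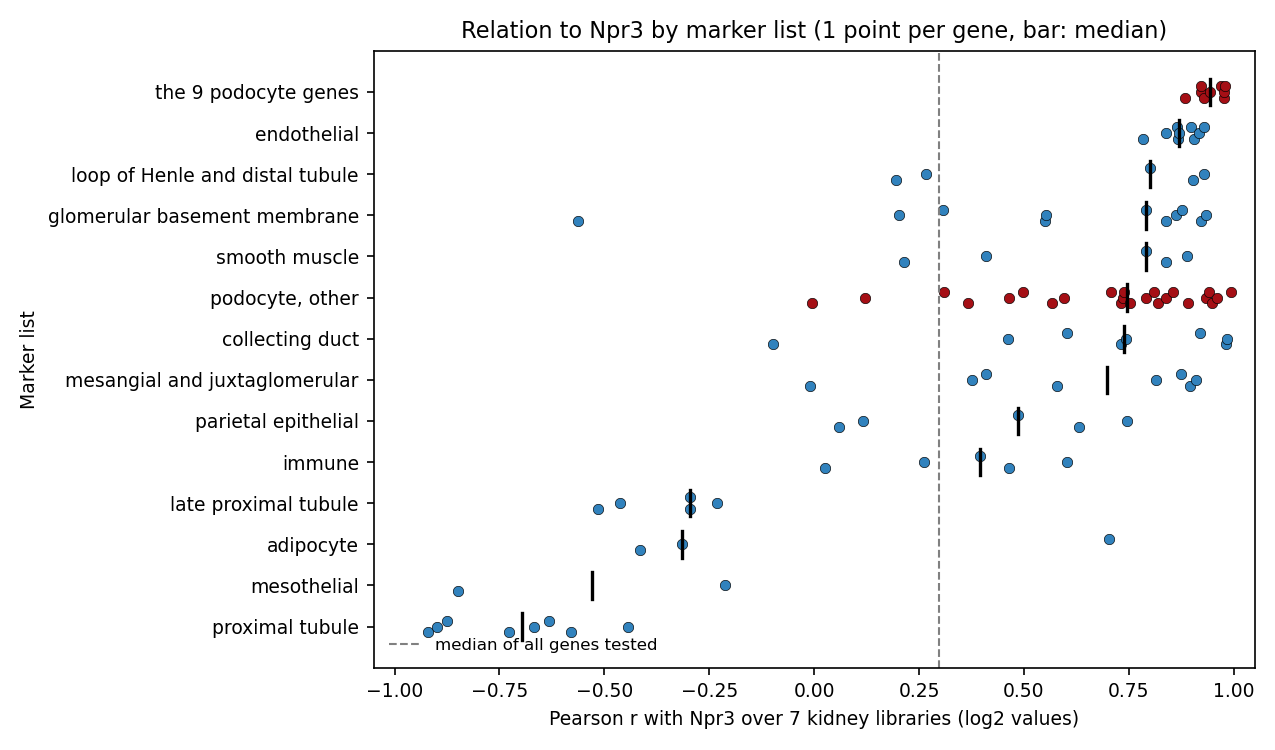
Pearson's r with Npr3 over the 7 kidney libraries (horizontal axis, log2 values), 1 point per gene, by marker list; black bars are list medians, red points are podocyte genes and the dashed line is the median of all genes tested, 0.297. The 9 podocyte genes lie between 0.884 and 0.978, the endothelial genes between 0.784 and 0.928, and all proximal tubule genes below 0.

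No gene of the other lists was called for the deletion in kidney. Col4a3, Col4a4 and Col4a5, the collagen IV chains of the mature glomerular basement membrane, were at -0.27 (SE 0.17), -0.52 (SE 0.34) and -0.17, and Nid1, nidogen, was at 0.30 (SE 0.26). These values leaned on the library labelled wild-type 3: without it Col4a4 was at -0.10, Col4a3 at -0.13 and Nid1 at -0.055. Without wild-type 1 Col4a4 was at -0.85, without deletion 2 at -0.32, and without wild-type 2 Col4a3 was at -0.47. Kdr, a VEGF receptor of endothelium, was at -0.17 (SE 0.19), and Pax8, a factor of parietal and tubule epithelium, at 0.14 (SE 0.17). Without wild-type 3 they were at -0.30 and 0.30, and leaving out other single kidneys took Kdr from -0.32 (without deletion 2) to -0.062 (without wild-type 1) and Pax8 down to -0.0295 (without wild-type 2). Over the 11 basement membrane and receptor genes the median was -0.04, and over the 9 endothelial genes -0.08.

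The genes nearest to the members were found by Pearson's r with the mean of the 9 over the 7 kidneys, taking the smaller of r over all 7 and r without wild-type 3. Npr3 came second among the genes outside the 9, at 0.992. Rhcg, an ammonia channel of the distal nephron and collecting duct, came first at 0.993, with 40.7, 25.7 and 28.1 FPKM in wild-type and 26.7, 50.4, 24.3 and 27.1 FPKM in deletion kidneys. Plxnd1, Rnf222, Ddx42, Itpr2, Slc35g1, Atp6v1b1, Ston1 and Sema3g followed, the last at 0.986. Of these, Sema3g is on the podocyte list, and Atp6v1b1, a proton pump subunit of intercalated cells, on the collecting duct list. The genes nearest to Npr3 itself were Rhcg, Rnf222, Ddx42, Sema3g, Ston1, Plxnd1, Cd9, Ripor1, Slc35g1 and Fut4, from 0.994 down to 0.986. Among genes with a symbol, with Npr3 itself counted as rank 1, Podxl ranked 20, Ptpro 23, Npnt 24 and Nphs1 45 by nearness to Npr3, Synpo ranked 157, Clic5 250, Wt1 295, Magi2 302 and Plce1 594. With 7 libraries, of which 2 stand apart, such ranks separate the genes only coarsely.

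Mesenteric artery holds no podocytes, and the comparison with it shows which of the 9 genes are also expressed outside the kidney. Nphs1 had 0.154, 0.146, 0.900 and 0.0605 FPKM in wild-type and 0.107, 0.452, 0.161 and 0.141 FPKM in deletion arteries, and averaged 8.53 FPKM in kidney. All 9 members had some signal in every library of both tissues. On average Nphs1 was lowest in artery, at 0.265 FPKM, and Magi2 next (0.473 to 0.957 FPKM). Kidney and artery were compared over all 15 libraries, where 77% of 16856 genes tested were called.

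Of the 9 members 4 were called higher in kidney, against 35.2% of all genes, and 1 lower, against 41.8%. Nphs1 was higher by 3.57 on the log2 scale (SE 0.23, adjusted p = 7.28e-10), an 11.9-fold difference in FPKM + 0.5. Npnt was higher by 1.48 (SE 0.19, adjusted p = 2.53e-06), Ptpro by 1.42 (SE 0.15, adjusted p = 4.38e-07) and Magi2 by 0.52 (SE 0.18, adjusted p = 0.017). The call of Magi2 was lost without kidney wild-type 1 (0.39, adjusted p = 0.0602). Plce1 was the 1 member lower in kidney, at -1.82 (SE 0.17, adjusted p = 9.41e-08), with 10.4, 13.5, 8.74 and 10.1 FPKM in wild-type and 13.5, 11.1, 10.98 and 12.6 FPKM in deletion arteries, all above every kidney.

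The other 4 did not pass. Podxl, which endothelium also makes, was at 0.37 (SE 0.19, adjusted p = 0.0929), with 42.9, 55.0, 36.8 and 53.8 FPKM in wild-type and 37.6, 32.03, 48.0 and 44.8 FPKM in deletion arteries. Synpo was at -0.33 (SE 0.21, adjusted p = 0.155), Wt1 at 0.52 (SE 0.31, adjusted p = 0.138) and Clic5 at -0.03 (SE 0.17, adjusted p = 0.891). Podxl was called with median-of-ratios scaling (0.52, adjusted p = 0.0122), which moved the median of all genes by 0.14. Synpo was called without kidney deletion 2 (-0.48, adjusted p = 0.0153) and Wt1 without artery deletion 2 (0.74, adjusted p = 0.0113). Npr3 itself was at -2.12 (SE 0.18, adjusted p = 3.02e-08), lower in kidney. Of the 25 other podocyte genes, 17 were called higher in kidney and 7 lower.

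**Figure D5:**
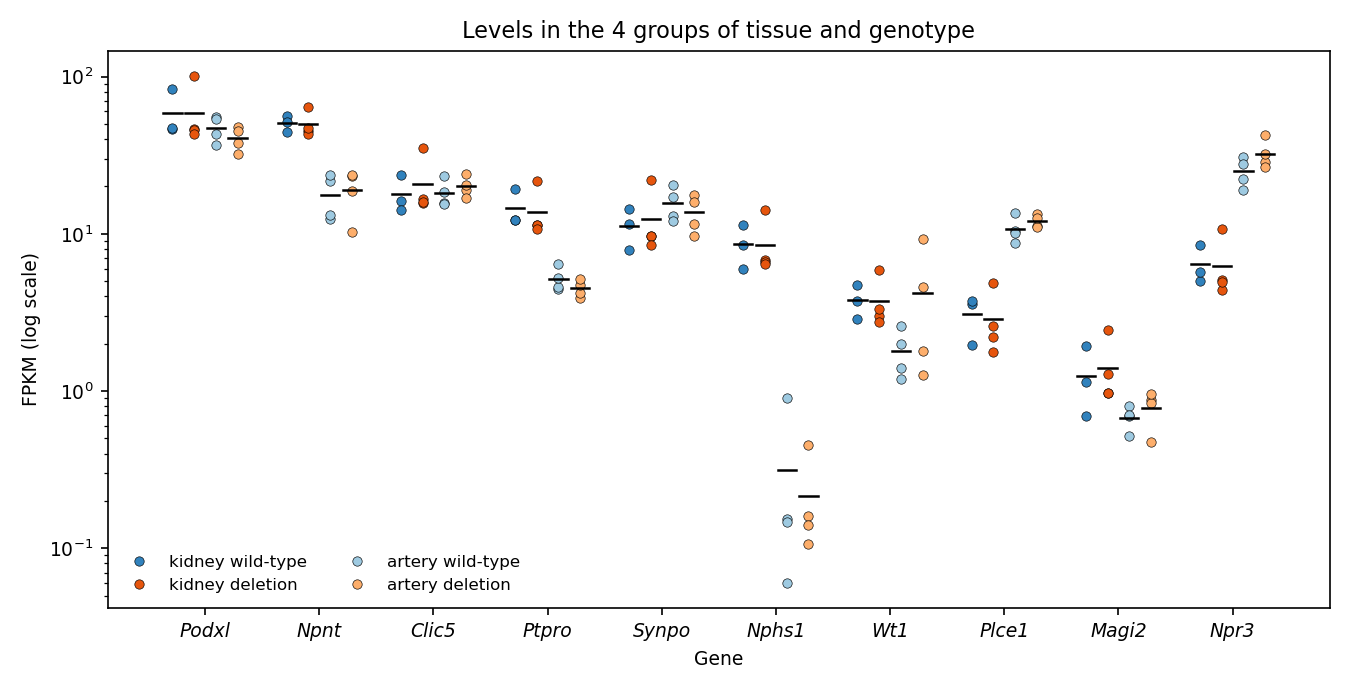
FPKM (log scale) of the 9 podocyte genes and Npr3 in the 4 groups, 1 point per library; horizontal bars are group means. Nphs1 is the member with the widest gap between kidney and artery, Plce1 and Npr3 are higher in every artery than in any kidney, and in no gene do the wild-type and deletion points of 1 tissue separate.

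In artery, 8 of the 9 members passed the filter on low values, Nphs1 being below it. None was called for the deletion, as for 0% of the 16470 genes tested (limma; 5.24% had an unadjusted p under 0.05 and 3.25% had groups that did not overlap). Adjusted p-values of the members ran from 0.893 to 0.972, and no member had groups free of overlap. The log2 differences were -0.21 (SE 0.17) for Podxl, -0.20 (SE 0.22) for Synpo, -0.17 (SE 0.14) for Ptpro, 0.09 (SE 0.29) for Npnt, 0.11 (SE 0.19) for Magi2, 0.15 (SE 0.15) for Clic5 and 0.18 (SE 0.13) for Plce1. Npr3 was at 0.37 (SE 0.18). The members did not move together here: of 36 correlations between them over the 8 arteries 17 were positive, with a median of -0.02 and a range from -0.875 to 0.950. These pairs include Nphs1, although it is below the filter. The lowest and highest values, of Synpo with Wt1 and with Podxl, do not involve it. The test of whether the deletion acted differently in kidney and artery called none of the 9, as it called 0% of 16856 genes (4.39% had an unadjusted p under 0.05).

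Wt1 had the widest difference of the members in artery, at 0.75 (SE 0.48), and 1 library weighed most on it. It had 2.60, 1.40, 1.99 and 1.198 FPKM in wild-type and 4.56, 9.23, 1.79 and 1.27 FPKM in deletion arteries. Deletion 2 was high, deletion 1 next, and the other 6 lay between 1.198 and 2.60. Without artery deletion 2 the difference was 0.29. Wt1 is also made by mesothelium, the layer that covers the mesentery, and 6 of 6 mesothelial markers were highest in the same library, with an r with Wt1 from 0.831 (Msln) to 0.963 (Gpm6a) over the 8 arteries. Msln, mesothelin, had 13.7, 0.586, 15.2 and 8.91 FPKM in wild-type and 28.2, 82.0, 8.02 and 1.18 FPKM in deletion arteries. The summed level of the 6 markers ran from 18.0 to 52.4 FPKM in wild-type and from 18.7 to 201 FPKM in deletion arteries. The median log2 difference of these markers was 0.90, with 6 of 6 higher in deletion arteries and none called, and their part in the Wt1 values was not tested. In the kidneys Msln reached at most 0.132 FPKM. Not all of the 6 markers were so low there: Gpm6a averaged 28.0 FPKM and Krt19 9.77 FPKM, against 22.4 and 3.50 FPKM in artery. The other markers averaged at most 0.324 FPKM in kidney. Gpm6a and Krt19 are thus not particular to the artery in these data.

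Of the 20 other podocyte genes tested in artery, none was called, 14 were higher and 6 lower in deletion arteries. Cd2ap was at -0.24 (SE 0.10, limma unadjusted p = 0.0339, adjusted p = 0.893). Lamb2, a laminin chain of the glomerular and vascular basement membrane, was at 0.28 (SE 0.12, limma unadjusted p = 0.0433, adjusted p = 0.893), from 61.8 FPKM in wild-type to 74.7 FPKM in deletion arteries. Unadjusted p in limma was under 0.05 for 1 of the 20 podocyte genes and 1 of 11 basement membrane and receptor genes. It was so for 1 of 7 mesangial and juxtaglomerular genes, against 5.24% of all genes tested.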

How the data were processed

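The authors deposited 1 table of FPKM values, with 1 column per library and gene coordinates. Per the submitters' processing notes, the tools included HISAT2 2.2.1, Trim Galore 0.6.2 and DESeq2 1.46.0, and the build was rn7; the notes give no role or order, and how FPKM was computed is not stated in them. With no counts, no counting interval could be given. Of 40694 rows, 6337 carry no identifier and were left out, and 1 column of coverage values for no stated sample was not used.

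Values were analysed as log2(FPKM + 0.5). Within each comparison, genes averaging 0.5 FPKM or more were tested with limma 3.58.1 in R 4.3.3 (trend and robust moderation, two-sided, with Benjamini-Hochberg adjustment over all genes, called at an adjusted p under 0.05). Each gene's relation to Npr3 was tested over all 5040 orders of the 7 kidneys (two-sided exact permutation test, the smallest p allowed being 0.000198). Scripts were tested on simulated data. Plots used matplotlib 3.10.9 (Python 3.11.15).

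The members and marker lists were chosen with earlier results of these data known. The genes named are the members, Npr3, up to 4 genes of a list with the smallest kidney p (some are not reported here), and the 10 genes nearest to the members and to Npr3; Sema3g, Crb2, Arhgap24, Lamb2, Cd2ap in artery, Msln, Upk3b and Gpm6a were added after their values were seen. Alternatives were other pseudocounts, filters, median-of-ratios scaling, limma array weights, a replicate block and leaving out libraries. Replicate numbers were not used as pairs in the main fits.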

Additional observations from a re-analysis of the deposited data

Results flagged for a closer look

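In 30 groups of 4 libraries checked, 1 for each member or Npr3 and each group but the wild-type kidneys, 8 held a library farther from the others than Dixon's 95% limit, where chance alone gives about 1 in 20 groups. Of these, 6 were kidney deletion 2, with 14.1 FPKM of Nphs1, 100.8 of Podxl, 22.0 of Synpo, 21.7 of Ptpro, 35.0 of Clic5 and 10.7 of Npr3, so they are 1 library seen in 6 genes. The other 2 were Nphs1 in artery wild-type 3, at 0.900 FPKM, and in artery deletion 2, at 0.452 FPKM; the group means of arterial Nphs1, 0.315 and 0.215 FPKM, lie below the filter of 0.5. The wild-type kidneys, with 3 libraries, were not checked in this way.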

How the results depend on the processing

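No member was called for the deletion in either tissue under any alternative run. Limma array weights, which give less weight to libraries far from their group, called 282 genes in kidney against 0; no member was among them, and the cause was not tested. In kidney 1 gene was called without both wild-type 1 and deletion 2, an alternative chosen after seeing the data, and 0 to 1 on leaving out single libraries (1 without wild-type 1). In artery 1 gene was called with a pseudocount of 0.1, and 0 to 1 on leaving out single libraries (1 without wild-type 2 or without deletion 3). Members with an unadjusted exact p under 0.05 for Npr3 numbered 1 without the 2 farthest kidneys and 6 to 9 on leaving out 1 kidney.

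Kidney differences near 0 changed sign: with array weights Nphs1 was at 0.19, Podxl 0.017, Plce1 0.21, Npnt 0.041, Npr3 0.014 and Col4a3 0.062; with median-of-ratios scaling Synpo was at -0.015; without wild-type 1 and deletion 2 Synpo was at -0.048. On leaving out single kidneys the log2 difference ran from -0.31 to 0.16 for Nphs1, -0.33 to 0.24 for Podxl, -0.24 to 0.25 for Synpo, -0.26 to 0.11 for Wt1, -0.33 to 0.12 for Ptpro, -0.39 to 0.027 for Plce1, -0.12 to 0.36 for Clic5, -0.12 to 0.39 for Magi2, -0.17 to 0.035 for Npnt, -0.36 to 0.13 for Npr3, -0.055 to 0.57 for Nid1 and -0.0295 to 0.30 for Pax8. In artery Npnt ran from -0.058 to 0.35. Between tissues Clic5 ran from -0.16 to 0.0498 and was at 0.12 with median-of-ratios scaling. The r of Clic5 with Npr3 was -0.56 without the 2 farthest kidneys.

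With a replicate block (the replicate number as a factor), kidney Nphs1 was at 0.051 and Podxl at 0.076, and no gene was called in either tissue. Libraries of the same number had deviations correlated at 0.082, -0.008 and 0.273 in kidney and 0.321, -0.342, 0.244 and 0.302 in artery. Of the wild-type libraries, kidney 3 and arteries 1 and 4 correlated best with the deletion library of their own number, and the others did not. With so few libraries and no reference for such values, a pairing by number can be neither shown nor excluded. With depth unknown, how far low values such as those of Magi2 and arterial Nphs1 can be trusted is not known.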
